A study of Rattus norvegicus with 12 samples.

Results

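In rat lung RNA, 86 transcripts stood apart in animals given intermittent daily reoxygenation (I3), with values outside the range of every other library of the study. Of these, 32 lay above and 54 below all 9 libraries of the other groups. They were chosen from 15435 transcripts that had a value of 1 FPKM or more in at least 3 of the 12 libraries. FPKM is an RNA level, the sequenced fragments of a transcript relative to its length and to the fragments mapped in that library. A transcript was taken when its 3 I3 values lay all above or all below the other 9, and when the means differed by 0.3 or more on the log2(FPKM + 1) scale. Transcripts in which another group, or all chamber groups together, stood apart in the same way were left out. The values of the 12 libraries thus chose the transcripts, and differences between I3 and the other groups are given as a description, with no test.

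Adult rats of the strain labelled SD were assigned at random to 4 groups of n = 3 libraries, and whole lung was sampled after 2 weeks. I3 rats lived in a hypobaric chamber at 405 mmHg, a simulated altitude of about 5000 m, and breathed 42% oxygen for 3 h per day, given intermittently. C3 rats lived in the same chamber and breathed the same gas for 3 h per day in a single continuous period. H rats lived in the chamber with no added oxygen, and N rats lived at the laboratory altitude of 400 m in air with 21% oxygen. The study asked whether short intermittent reoxygenation prevents the pulmonary hypertension that high altitude brings about. Nothing in the labels ties each library to its own animal, so spreads and p-values refer to these libraries and may be technical.

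In a lung short of oxygen, small pulmonary arteries constrict, and over days to weeks their walls thicken as smooth muscle cells and fibroblasts multiply and deposit matrix. Cells sense low oxygen largely through the hypoxia-inducible transcription factors, whose alpha subunits are degraded when oxygen is present. Repeated changes between low and high oxygen also raise the formation of reactive oxygen species, and the schedule of reoxygenation is therefore of interest beside its daily length. The 86 transcripts carry Ensembl transcript identifiers, which the deposited table does not pair with genes, and the RefSeq gene table used here matched 0 of them. No gene name, function, sequence or cell type can therefore be given to a member, and neither pathway lists nor lung cell markers were checked. Whole lung mixes many cell types, so fewer cells of a type and less RNA per cell cannot be told apart in any value below.

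Sums of the deposited values lay between 323894 and 361337 per library, and depth is unknown. Some libraries stood apart from the rest. N replicates 2 and 3 scored 60.3 and 35.6 on principal component 1 (15.1% of the variance), N replicate 1 scored 10.1, and the chamber libraries -21.7 to -3.38. Principal component 2 (10.99%) separated I3 replicate 3 and H replicate 3, with scores of 39.4 and 36.4, from the others at -25.7 to 10.2. With N replicate 2 or N replicate 3 left out, 105 and 118 transcripts met the rule, among them 75 and 78 of the 86. Without I3 replicate 3 and H replicate 3 together the number was 391, including 78 of the 86, but then only 2 I3 libraries had to stand apart. A member stays apart from the remaining libraries when any library is left out. It can be lost only through the filter, the minimum difference or another group standing apart. That a member still stood apart is thus fixed by the rule.

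The number of transcripts set apart in I3 was close to that in H and small beside that in C3 and N. Before the minimum difference was applied, the 3 I3 libraries lay beyond the other 9 for 124 transcripts, 0.803% of all those tested, with 57 above (0.369%) and 67 below (0.434%). The C3 libraries did so for 551 transcripts (3.57%), the H libraries for 122 (0.79%) and the N libraries for 738 (4.78%). Of the 124 transcripts, 34 differed by less than 0.3, and 4 more were left out because C3 (2 transcripts), H (1) or N (1) also stood apart. The 86 that remained make up 0.557% of the transcripts tested, 0.207% above and 0.35% below. Under the same rule 347 transcripts were set apart in C3, 87 in H and 576 in N. Around the minimum of 0.3, the 2 nearest transcripts above the other groups differed by 0.302 and 0.307 inside the rule and by 0.293 and 0.297 outside it. Among those below, the nearest differed by 0.302 and 0.315 inside and by 0.257 and 0.272 outside.

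**Figure D1:**
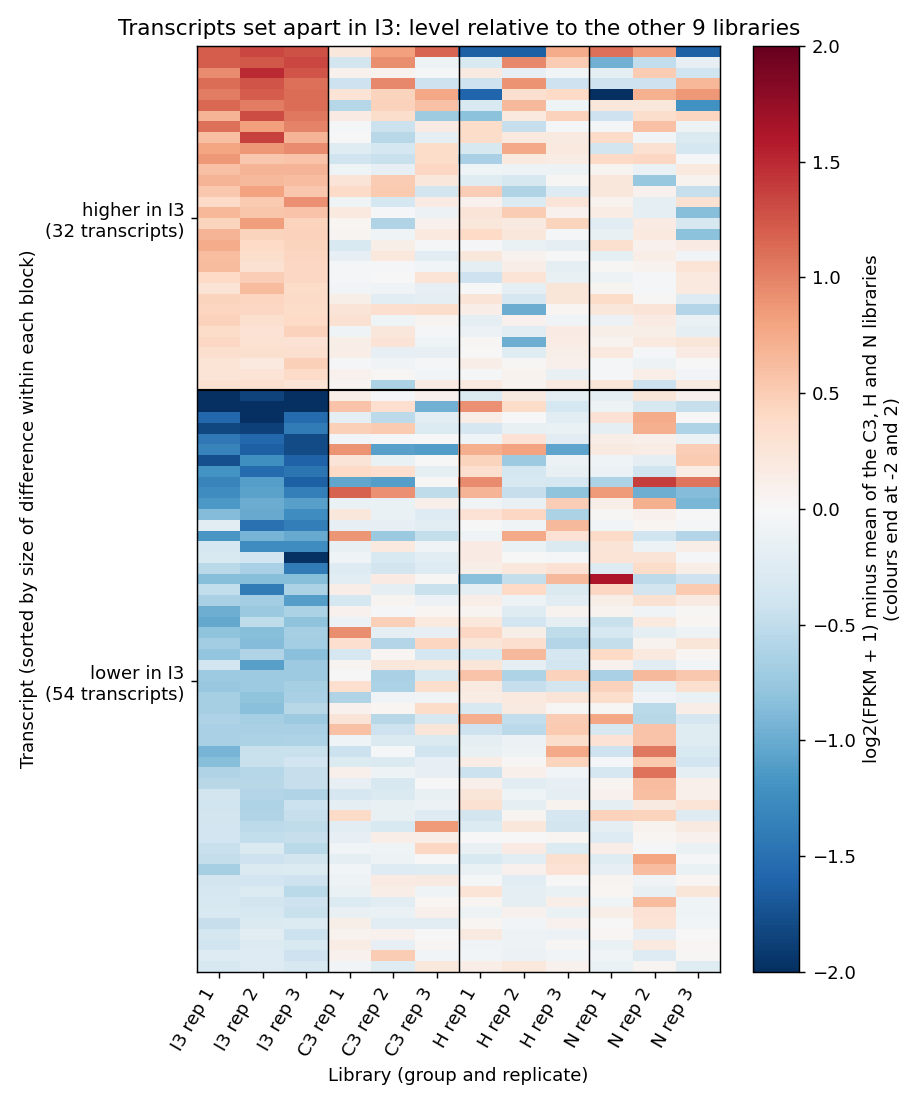
Heat map of the 86 transcripts (rows) in the 12 libraries (columns), showing log2(FPKM + 1) minus the mean of the 9 C3, H and N libraries. The I3 columns are uniformly red for the 32 transcripts higher in I3 and blue for the 54 lower ones, which the choice of transcripts fixes, while the C3, H and N columns vary in both directions.

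Among the 32 transcripts higher in I3, the difference between the I3 mean and the mean of the other 9 libraries was 0.30 to 1.27 on the log2(FPKM + 1) scale, with a median of 0.58. In FPKM, the I3 mean was 1.24 to 4.57 times that of the other 9, with a median of 1.60. On this scale the widest differences were those of ENSRNOT00000066915 and ENSRNOT00000015316, an order that depends on the pseudocount. With 0.1 in place of 1 the difference was 2.38 for ENSRNOT00000066915 and 1.28 for ENSRNOT00000015316. Among the transcripts named in this report, ENSRNOT00000082242 (2.11), ENSRNOT00000077698 (1.78) and ENSRNOT00000087241 (1.34) then lay above ENSRNOT00000015316. Members that are not named were not compared at 0.1, and some of them may lie higher still. ENSRNOT00000066915 had 6.16, 6.82 and 6.50 FPKM in I3, against 2.63, 4.46 and 5.91 in C3, 0, 0 and 4.18 in H, and 5.62, 4.55 and 0.000536 in N. Its difference was 1.27, with 3 of the other libraries at or near 0, while C3 replicate 3 came within a gap of 0.05 (log2) of the I3 libraries. An exact 0 in estimated abundances can also be a failed estimate. ENSRNOT00000015316 had 99.9, 102 and 109 FPKM in I3, against 32.9, 82.0 and 39.8 in C3, 34.3, 84.6 and 61.0 in H, and 21.6, 30.0 and 38.2 in N. The I3 libraries lay close together at 104 ± 4.80 FPKM (SD, n = 3), whereas those of C3 and H were spread over more than 40 FPKM each.

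Distance from the other libraries was clearest for ENSRNOT00000082242 and ENSRNOT00000077698 among the transcripts higher in I3. ENSRNOT00000082242 had 2.02, 3.42 and 2.77 FPKM in I3, against 0.665, 0.652 and 0.542 in C3, 0.782, 0.409 and 0.514 in H, and 0.373, 1.25 and 0.199 in N. Only N replicate 2 exceeded 1 FPKM outside I3, and the gap to the nearest I3 library was 0.43 (log2), the widest of the 32. ENSRNOT00000082242 therefore met the filter of 1 FPKM in 3 libraries only through its I3 values. Transcripts as low as this outside I3 could enter when higher in I3, but not when lower. ENSRNOT00000077698 had 4.12, 3.69 and 4.02 FPKM in I3, against 0.563, 2.18 and 2.47 in C3, 0.868, 2.64 and 1.18 in H, and 1.72, 1.70 and 0 in N. Its gap was 0.37. Both are low transcripts, for which a difference on the log2(FPKM + 1) scale understates the ratio of FPKM values.

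The 54 transcripts lower in I3 reached further. Their differences were -2.54 to -0.30 with a median of -0.72, and the I3 mean was at most 0.771 times that of the other 9 in FPKM, with a median of 0.542. ENSRNOT00000061199 had 1.13, 2.02 and 0.0121 FPKM in I3, against 10.9, 9.57 and 10.6 in C3, 7.89, 11.3 and 8.44 in H, and 8.52, 11.8 and 10.5 in N. Every library outside I3 held 7.89 FPKM or more, and both its difference (-2.54) and its gap (1.56) were the widest of all 86 transcripts on the log2(FPKM + 1) scale. ENSRNOT00000086119 had 0.0996, 0.484 and 0 FPKM in I3, against 8.20, 6.76 and 2.17 in C3, 10.7, 6.95 and 3.81 in H, and 4.77, 3.96 and 3.47 in N. Its difference was -2.39 and its gap 1.09, with C3 replicate 3 the nearest library. With a pseudocount of 0.1 its difference was -4.52, wider than the -3.91 of ENSRNOT00000061199.

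ENSRNOT00000041915 combined a wide gap with little spread. It had 10.5, 9.42 and 7.94 FPKM in I3, against 28.7, 29.1 and 29.7 in C3, 28.2, 36.6 and 25.8 in H, and 32.8, 32.0 and 27.6 in N. The C3, H and N libraries overlapped one another at 30.1 ± 3.25 FPKM (SD, n = 9), and the I3 mean was 0.309 times theirs, with a gap of 1.22. A gap of 0.5 or more occurred in 6 of the 86 transcripts, all of them lower in I3.

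**Figure D2:**
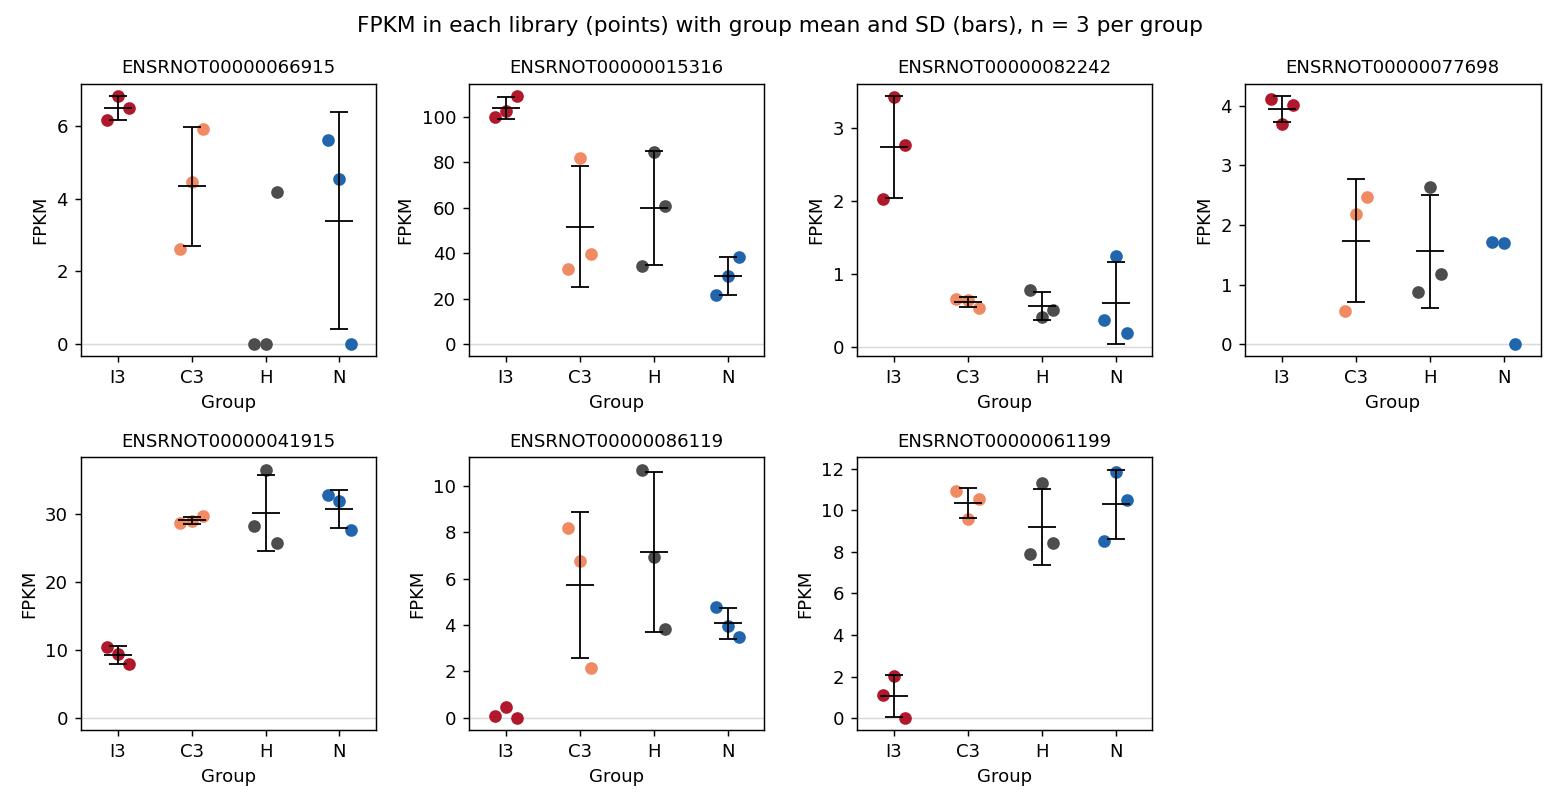
FPKM (vertical axes) of the 7 transcripts with the widest difference or gap, by group (horizontal axes), with each library as a point and the group mean and SD as bars (n = 3; no bar where a library is listed at 0). ENSRNOT00000041915 lies at 7.94 to 10.5 FPKM in I3 with all other libraries at 25.8 FPKM or more, whereas ENSRNOT00000066915 in C3 and N comes close to the I3 values.

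For most of the 86 transcripts the separation was narrow. The gap between the nearest I3 library and the nearest other library had a median of 0.08 (log2), a range of 0.000251 to 1.56, and was under 0.1 for 49 of the 86. It made up a median of 12.8% of the difference between the means. The difference itself was under 0.5 for 29 transcripts and 1 or more for 21, and 33 had an I3 mean in FPKM at least 2 times, or at most 0.5 times, that of the other 9. The nearest other library was a C3 library for 32 transcripts, an H library for 30 and an N library for 24. C3 replicate 2 was nearest most often, for 16 transcripts, and the other 8 libraries for 7 to 11 each. Of the 16, 11 were lower in I3, where the nearest library is the lowest of the others. C3 replicate 2 also had the lowest sum of values of the 12 libraries, 323894, and whether this bears on the count was not tested. Within I3, replicate 1 lay nearest to the other groups for 36 transcripts, replicate 2 for 27 and replicate 3 for 23.

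**Figure D3:**
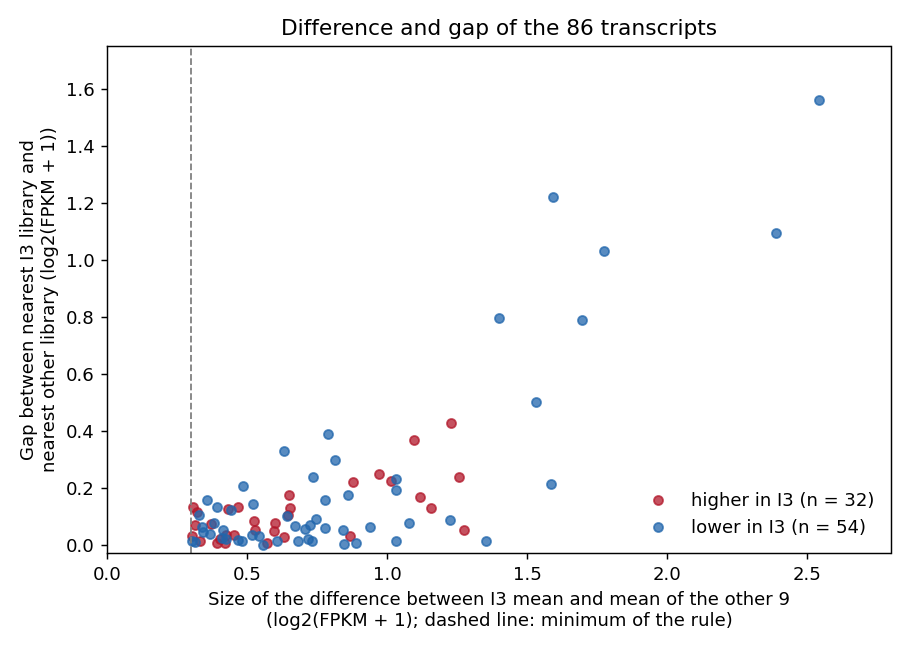
Gap between the nearest I3 library and the nearest other library (vertical axis, log2(FPKM + 1)) against the size of the difference between the I3 mean and the mean of the other 9 libraries (horizontal axis, same scale), one point per transcript, for 32 transcripts higher and 54 lower in I3. Most points lie under a gap of 0.1, and the 6 points at 0.5 or more are all lower in I3.

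Averaged over transcripts, the I3 libraries lay close to one another in both directions, which the rule favours. The separation of these means from the other libraries is fixed by the choice of transcripts. The mean log2(FPKM + 1) of the 32 higher transcripts was 2.95, 3.00 and 2.97 in the I3 libraries, against 2.30 to 2.38 in C3, 2.18 to 2.40 in H and 2.19 to 2.39 in N. For the 54 lower transcripts it was 2.24, 2.20 and 2.12 in the I3 libraries, against 2.89 to 3.06 in C3, 2.97 to 3.09 in H and 2.99 to 3.18 in N. Single I3 libraries could still carry a difference. The most abundant of the 86, ENSRNOT00000016076, which was singled out after its values were seen, had 538, 513 and 169 FPKM in I3, against 627, 541 and 569 in C3, 748, 674 and 655 in H, and 807, 795 and 647 in N. I3 replicate 3 lay far below the other I3 libraries, and I3 replicate 1 came within a gap of 0.0074 (log2) of C3 replicate 2.

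The 86 transcripts were somewhat less abundant than the transcripts tested as a whole. Their mean over the C3, H and N libraries had a median of 5.12 FPKM, against 7.38 FPKM for all transcripts tested, and was under 5 FPKM for 43 of 86 (50.0%), against 38.9% of all. At 20 FPKM or more stood 13 (15.1%), against 21.9% of all. At least 1 library was listed at exactly 0 for 9 of the 86 (10.5%), against 6.17% of all. All 3 I3 libraries were listed at 0 in 2 of the 86 (2.33%, against 0.233% of all), a pattern that the rule favours among lower transcripts. The other libraries held at most 1.58 FPKM in the one and 1.34 FPKM in the other. The SD among I3 libraries, which the rule favours to be small, had a median of 0.12 (log2) in the 86 and 0.21 in all. Among C3, H and N libraries the SD within groups had a median of 0.29 in the 86 and 0.25 in all.

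Differences among C3, H and N were then read from a fit over all transcripts with limma, a linear model whose estimate of the spread pools the 4 groups. I3 values do not enter these differences, but the spread of I3 enters their errors, and the C3, H and N values also took part in choosing the members. Limma called 0 of the 86 in H against N, where it called 0.337% of all transcripts tested. In C3 against N it called 0 of 86, against 1.09% of all, and in C3 against H 0 of 86, against 0.013%. At an unadjusted p below 0.05, 2 of the 86 differed between H and N (10.4% of all transcripts did), 4 between C3 and N (17.4% of all) and 2 between C3 and H (6.86% of all). The rule left out transcripts with another group apart, 4 of those past the minimum difference, which lowers the number of members that can be called. The rest of the choice also used the C3, H and N values, so these shares are not a result about the members. How far the choice lowers these shares was not tested.

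In H against N, the members with the smallest p in each direction did not pass the test. ENSRNOT00000018252 had 34.3, 41.0 and 30.3 FPKM in H, against 31.7, 24.7 and 15.4 in N, a difference of 0.58 ± 0.22 (SE) on the log2(FPKM + 1) scale (adjusted p = 0.374 in limma). For ENSRNOT00000015316, whose values are given above, the difference was 0.92 ± 0.38 (adjusted p = 0.429 in limma). Both had their highest values in I3, at 42.4 FPKM or more and 99.9 FPKM or more, as the rule requires of transcripts higher in I3. ENSRNOT00000000203, with 4.70, 4.73 and 5.11 FPKM in I3, had 7.97, 6.21 and 6.47 in H, against 7.70, 11.8 and 7.95 in N, a difference of -0.35 ± 0.16 between H and N. ENSRNOT00000086531, with 7.15, 5.44 and 5.64 FPKM in I3, had 3.79, 3.44 and 3.33 in H, against 5.08, 4.21 and 4.49 in N, a difference of -0.31 ± 0.14. I3 and H thus lay on opposite sides of N for the second transcript and on the same side of the N mean for the first. The rule fixed the side of I3 in each. The adjusted p was 0.504 in limma for both.

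C3 against N gave the same outcome. ENSRNOT00000073915, with 12.9, 10.97 and 10.8 FPKM in I3, had 13.2, 13.6 and 15.2 in C3, against 18.1, 26.2 and 18.3 in N, a difference of -0.53 ± 0.16 between C3 and N (adjusted p = 0.146 in limma). ENSRNOT00000073643, with 14.0, 8.54 and 14.2 FPKM in I3, had 38.0, 30.1 and 37.0 in C3, against 53.3, 73.0 and 43.3 in N, a difference of -0.65 ± 0.22 (adjusted p = 0.181 in limma). In both, the C3 libraries lay between those of I3 and N. The choice brings this order about: the rule put I3 below C3, and both were picked as lower in C3 than in N. Higher in C3 than in N, without passing, were ENSRNOT00000087241 (0.49 ± 0.25, adjusted p = 0.335 in limma) and ENSRNOT00000015316 (0.69 ± 0.38, adjusted p = 0.374 in limma). ENSRNOT00000087241 had 1.04, 1.41 and 0.995 FPKM in C3, against 0.980, 0.000126 and 0.788 in N. It met the filter of 1 FPKM in 3 libraries only with the help of its I3 values.

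Between C3 and H, the nearest to a call were ENSRNOT00000092558 and ENSRNOT00000088905, both lower in C3. ENSRNOT00000092558 had 0.948, 1.80 and 1.79 FPKM in C3, against 2.26, 2.37 and 2.52 in H, a difference of -0.45 ± 0.19 (adjusted p = 0.712 in limma). ENSRNOT00000088905 had 13.2, 12.3 and 13.3 FPKM in C3, against 17.5, 18.8 and 19.9 in H, a difference of -0.50 ± 0.22 (adjusted p = 0.725 in limma). The C3 and H libraries of both did not overlap, and neither did the C3 and H libraries of 15.6% of all transcripts tested. In the other direction, ENSRNOT00000087241 (0.51 ± 0.25) and ENSRNOT00000066915 (1.58 ± 0.77) had adjusted p-values of 0.725 and 0.727 in limma.

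Over the 86 transcripts the differences among C3, H and N were close in size to those of all transcripts tested. The median absolute difference was 0.15 for H against N, where it was 0.18 over all transcripts tested, 0.23 against 0.23 for C3 and N, and 0.18 against 0.17 for C3 and H. In the 32 higher transcripts the signed median was -0.04 for H minus N, 0.01 for C3 minus N and 0.01 for C3 minus H. In the 54 lower transcripts they were -0.06, -0.14 and -0.03, and over all transcripts tested -0.02, -0.04 and -0.02. The group whose mean lay nearest to I3 was C3 for 27 of the 54 lower transcripts, H for 16 and N for 11. For the 32 higher transcripts it was C3 for 13, H for 10 and N for 9. Nearest means the lowest of the C3, H and N means for lower transcripts, and the highest for higher ones. Over all transcripts tested, the C3 mean lay above the N mean in 44.8% and above the H mean in 46.5%. C3 was thus more often the lower group in all transcripts, and no count of the nearest group was made over them. These values were not scaled between libraries. Median ratio size factors, a measure of the general level of a library, were 0.976 to 1.01 in C3 and 1.02 to 1.05 in N. Whether this bears on the order of the groups was not tested.

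**Figure D4:**
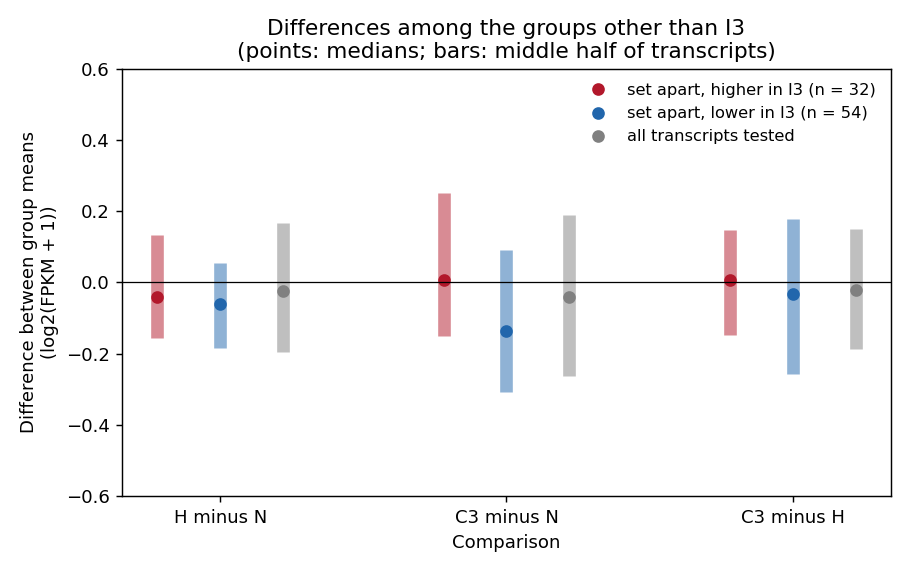
Differences between group means (vertical axis, log2(FPKM + 1)) for H minus N, C3 minus N and C3 minus H, in the 32 transcripts higher in I3, the 54 lower in I3 and all transcripts tested. Points are medians and bars span the middle 50% of transcripts; the medians lie between -0.14 and 0.01 and the bars include 0 in every case.

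Whether a library that took no part in the choice shows the same separation was examined by leaving out each I3 library, choosing transcripts by the same rule from the other 11 libraries, and reading the library left out. Without I3 replicate 1, 355 transcripts were chosen, and in 85 of them (23.9%) replicate 1 lay beyond the other 9 libraries on the same side. Replicate 2 did so in 87 of 282 (30.9%) and replicate 3 in 81 of 346 (23.4%). Together the left-out I3 library lay beyond the other 9 in 25.7% of choices and on the same side of their mean in 65.5%. If all 12 libraries were interchangeable, the left-out library would join a chosen pair in 25% of choices, leaving aside the minimum difference and the transcripts dropped. The share in I3 lay close to that 25%. This level is only a reference, because C3 and N gave higher shares (47.8% and 50.1%) and the 12 libraries may not be interchangeable. Membership among the 86 is not by itself evidence of an effect of intermittent reoxygenation, which was not tested. The median difference of the pair that chose the transcripts was 0.54, 0.62 and 0.58 on the log2 scale, while the libraries left out had 0.12, 0.19 and 0.10.

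The same procedure was run on the other groups. The left-out library lay beyond the other 9 in 47.8% of choices in C3 (44.4% to 51.9% over its libraries), in 26.9% in H (21.0% to 32.5%) and in 50.1% in N (38.8% to 64.5%). It lay on the same side of their mean in 82.7% of choices in C3, 64.6% in H and 81.6% in N. In C3 the median difference of the left-out library was 0.27 to 0.34, in H 0.08 to 0.21 and in N 0.22 to 0.53. By these measures I3 lay near H, and below every C3 and N library. The difference between groups was not tested, because the 3 choices within a group share libraries.

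**Figure D5:**
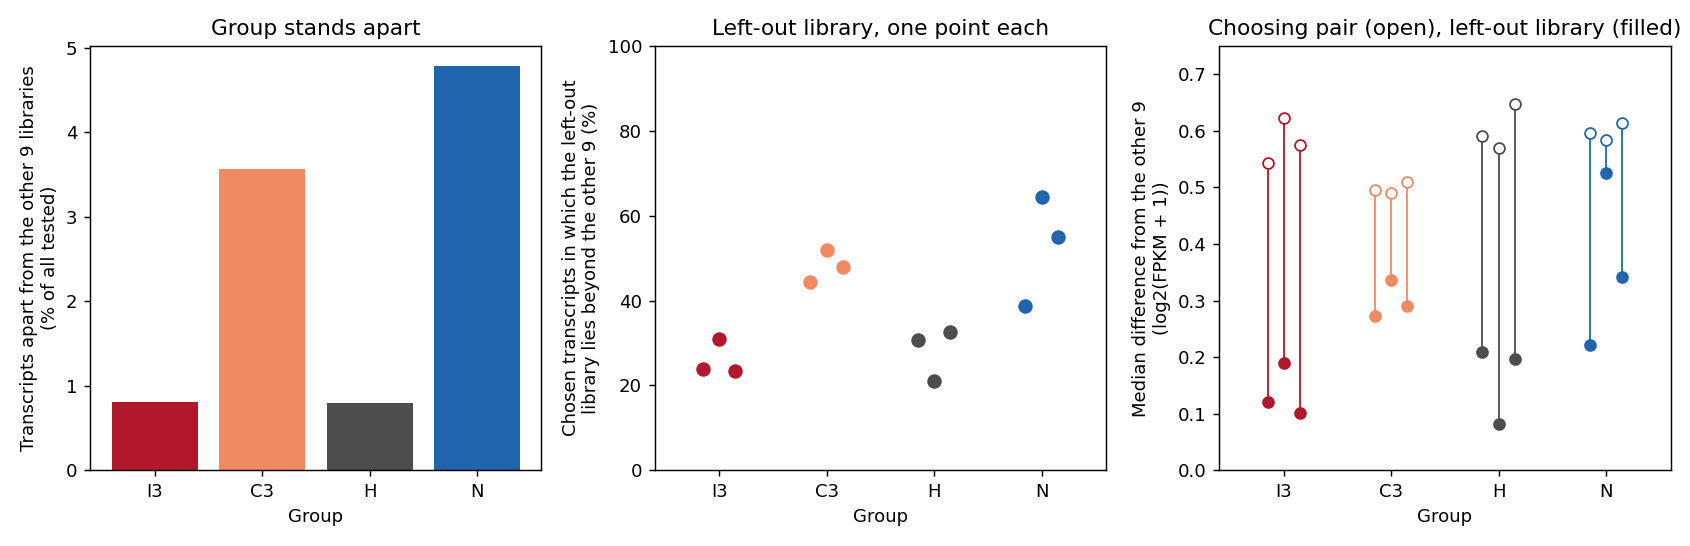
Share of transcripts in which a group lies beyond the other 9 libraries (left, % of 15435), share of chosen transcripts in which the left-out library lies beyond the other 9 (middle, %, one point per library), and median difference from the other 9 for the choosing pair (open) and the left-out library (filled) (right, log2(FPKM + 1)), by group. I3 and H lie together at 0.803% and 0.79% on the left and at 21.0% to 32.5% in the middle, with C3 and N higher in both.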

How the data were processed

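Whole-lung total RNA of 12 libraries was sequenced, 3 per group. The submitters' processing notes name the trimmer cutadapt, the aligner HISAT2 2.0.5 and StringTie, which estimates abundances, and also the human build hg19, at odds with the rat identifiers. The annotation release was not used here. The authors deposited 1 table of 17254 transcripts with no unit named, taken here as FPKM because StringTie is named; TPM of a filtered list would look alike. Whole reads could not be recovered: below 0.2 FPKM, the log2 ratios of no library pair, of 66, piled up (at most 4.90% of them fell within 0.02). No interval or floor is therefore given. StringTie shares reads among the transcripts of a gene, so a transcript can move with no change of its gene.

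Values were used as log2(FPKM + 1) after a filter of 1 FPKM in 3 libraries. Limma 3.58.1 under R 4.3.3 was fitted to the 4 group means of all 12 libraries, with a mean-variance trend and 8 residual degrees of freedom. Its two-sided p-values received a Benjamini-Hochberg adjustment across the 15435 transcripts. The rule and the fit were tested on simulated data. Planned gene sums, pathway lists and marker lists were not run, since 0 identifiers matched the 47357 genes of the RefSeq table (assembly GRCr8). The members and lists were chosen with earlier results of these data known. Named transcripts are the 2 in each direction with the largest difference, the 2 with the widest gap, and the 2 in each direction with the smallest p in each of 3 comparisons. Replicate numbers were not taken as pairs.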

Additional observations from a re-analysis of the deposited data

How the results depend on the processing

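The table gives no depth, so precision rests on 3 libraries per group. The count of 86 (32 higher, 54 lower) became 94 with a pseudocount of 0.1, 100 with no filter, 88 with median ratio scaling (77 of them among the 86) and 90 with transcripts apart in another group kept. It was 49 (18 and 31) with a filter at 5 FPKM, 57 with a minimum difference of 0.5 (19 higher), and 120 with no minimum (55 higher). Leaving out 1 library gave 97 to 355 (35 to 170 higher, 55 to 193 lower). Counts above 119 arose only where an I3 library was left out, since 2 libraries then had to stand apart. Of the 86, 42 were chosen every time. Standing apart is fixed by the rule in these settings, so losses come only from the filter, the minimum difference or the transcripts dropped. Without N replicate 3, 52 were higher. Without H replicate 3 and I3 replicate 3 together the counts were 391, 179 and 212.

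For H against N, C3 against N and C3 against H, limma called 0 of the members tested under every setting run. Of the 86, 49 were tested with the filter at 5 FPKM, and up to 86 elsewhere. Over all transcripts it called few as well, 10 to 58, 21 to 191 and 0 to 14 over these settings. Among members, 1 to 6, 3 to 9 and 0 to 4 had an unadjusted p below 0.05 in limma. In the main fit, 10.4%, 17.4% and 6.86% of all transcripts did. The smallest adjusted p-values among members were 0.154, 0.0758 and 0.341 in limma. The replicate block also called 0 of the 86 in each (28, 25 and 2 of all transcripts, against 52, 168 and 2 without it). Same-numbered libraries deviated together with r of -0.04 to 0.13 over 18 pairs, and 7 of 12 correlated best with their own number, a hint from the data and not the design. For the 15 named transcripts, the difference between I3 and the other 9 kept its sign in all 210 values under other settings. The rule fixes that sign when a library is left out or the pseudocount is changed, so it is no check of the difference. Of the 210 values, 29 moved by more than the SD of the I3 libraries.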
